A study of Mus musculus with 3 samples.

Results

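Transcripts of Mettl21c and of its related protein methyltransferases were compared between Mettl21c-deficient and wild-type mouse muscle on arrays carrying 55681 probes. The probes named 21613 genes in all. The set held 10 genes, namely Mettl21c, Mettl21a, Mettl21e, Vcpkmt, Eef1akmt3, Mettl22, Mettl23, Mettl18, Etfbkmt and Eef2kmt. Its probes were found by matching the RefSeq accession of each probe to these symbols and to their older names. This gave 11 probes for 9 genes, with 2 probes each for Mettl21a and Mettl18 and 1 probe for each of the other 7 genes. Eef1akmt3, whose older names include Mettl21b, had no matched probe and was not analysed here.

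The labels abbreviate the muscle as SOL, which was taken to mean soleus, a hindlimb muscle rich in slow fibres. All mice were male C57BL/6 animals aged 8 weeks that received regular chow, and whole muscle RNA was used. The WT group was wild type at Mettl21c and the KO group was homozygous for a LacZ allele (Mettl21cLacZ/LacZ). Each of 3 arrays held 1 WT sample in the green dye Cy3 and 1 KO sample in the red dye Cy5, with 3 biological replicates per genotype and no exchange of dyes. A preference of a probe for one dye therefore cannot be told apart from the genotype.

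METTL21-type enzymes share a methyltransferase fold built on a core of beta strands, and they add methyl groups to single residues of other proteins, mostly lysines of chaperones and of translation factors. Mettl21c and Mettl21e are known for their expression in skeletal muscle, while relatives such as Mettl21a and Vcpkmt are widely expressed. Within the set, Mettl18 is a histidine methyltransferase and Mettl23 has been described as an arginine methyltransferase, so the set is wider than lysine methylation. Because the arrays measured RNA, methylation of the target proteins was not measured.

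Each array had 59305 spots besides controls, of which 20.4% to 23.6% were bright enough to stand well above background in WT and 22.5% to 22.9% in KO. With 3 arrays, the precision of each mean is limited by their number. Well above background is the scanner software's own flag for a spot that it calls clearly brighter than background. A median intensity above the local background did not by itself earn the flag. Of 8 slow fibre markers 6, and of 9 fast fibre markers 7, were well above background in both channels of all arrays. Spots flagged as outliers were dropped before this count, so a marker outside it need not be dim. The slow fibre marker Myh7 was outside it with a mean processed WT signal of 77015. Among the 9 marker lists (slow and fast fibre, macrophage, red blood cell, adipocyte, endothelial, tendon, fibroblast and Schwann cell) no tested gene passed the test at an adjusted p of 0.05. Of all tested probes, 51.3% had mean log2 ratios below 0. The 5 tested macrophage markers all had mean log2 ratios below 0 (median -0.25), but their median on array 3 was 0.02. All macrophage markers with a probe, tested or not, had summed processed signals of 7472 to 14980 in WT and 6672 to 10210 in KO. The 3 tested red blood cell markers all had mean log2 ratios above 0 (median 0.21), but Hbb-b1 was at -0.23 on array 2. The largest was Hba-a1, at 0.96, 0.37 and 0.98 (mean 0.77, SD 0.34, n = 3, limma adjusted p = 0.0940). All red blood cell markers with a probe had sums of 11250 to 18530 in WT and 13950 to 32760 in KO. The ranges of WT and KO overlapped for the macrophage and red blood cell lists, and the part of these cells in the results below was not tested. Of the tested slow fibre markers 5 had mean log2 ratios above 0 and 1, Atp2a2 at -1.14, below (median 0.22). Of the tested fast fibre markers 2 were above 0 and 5 below (median -0.15).

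Of the 11 probes 3 were bright enough for a test, that is, well above background on all 3 arrays in at least 1 channel: those of Mettl21c and Mettl22 and 1 of the 2 Mettl21a probes. This is 27.3% of the probes of the set against 15.1% of all probes on the array. Over the whole set, 12 of 33 WT values and 7 of 33 KO values were well above background. For 5 probes, those of Mettl21e, Vcpkmt and Eef2kmt and 1 each of Mettl21a and Mettl18, no value in either channel reached that level. Most probes of the set were therefore at or near the detection limit in this muscle in both genotypes. Whether the transcripts themselves were rare was not tested, and the 2 Mettl21a probes, assigned to the same transcript, differed in brightness. No spot of the set was saturated or had an outlier flag, and 2 spots had an outlier flag on their local background.

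**Figure D1:**
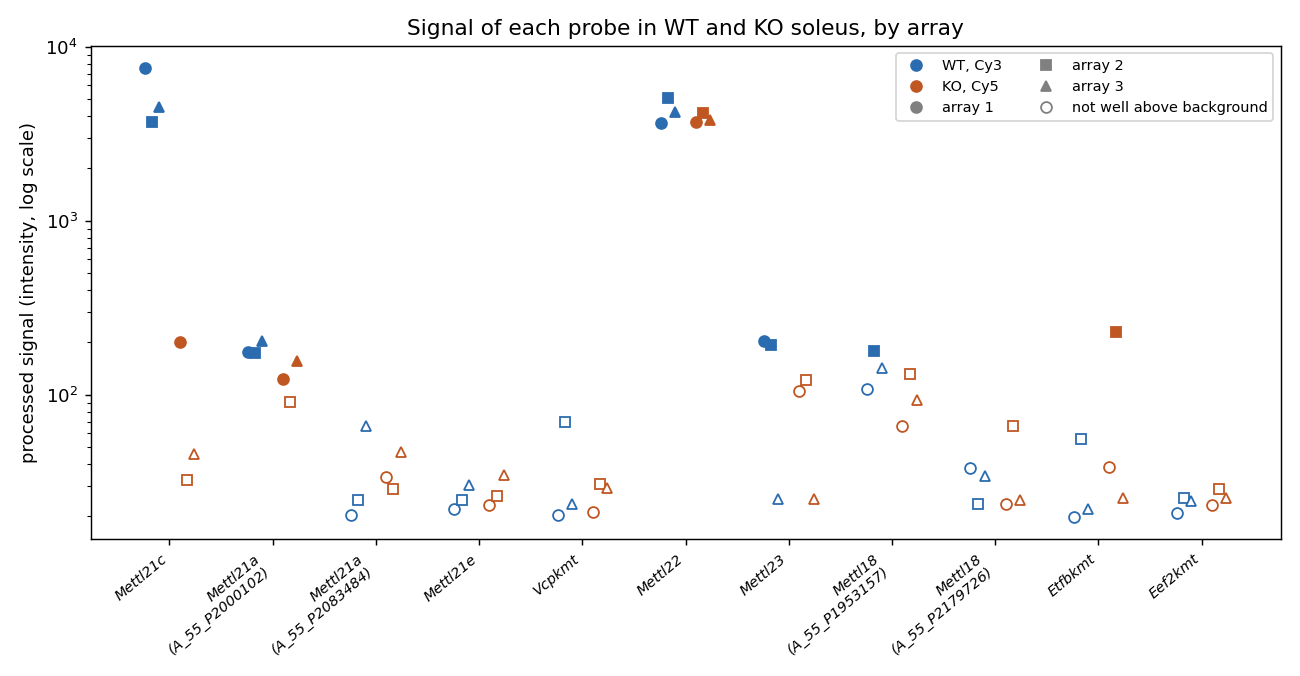
Processed signal of each of the 11 probes on a log scale, with WT (Cy3) in blue and KO (Cy5) in orange, and circles, squares and triangles for arrays 1, 2 and 3. Open symbols are values not well above background; the Mettl21c signals run from 3677 to 7527 in WT and from 32.3 to 200.4 in KO, while those of Mettl22 lie between 3671 and 5061 in both genotypes.

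The comparison of KO with WT asked first whether the transcript of the targeted gene was lower in the samples labelled KO, and then whether transcripts of related enzymes differed. Signals are given as processed signals, the scanner software's intensities after background subtraction and dye normalisation. Tests used log2 ratios of KO over WT computed from background-corrected intensities with an added offset of 50 and a loess fit within each array. Because the offset pulls ratios of weak signals towards 0, the processed ratio, which has no offset, is given beside them; where a spot was not well above background, that ratio rests on an unmeasured signal. Each mean ratio was tested against 0 with limma, and p-values were adjusted over all 8391 tested probes.

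Mettl21c, which in mouse muscle has been described as a methyltransferase of alanyl-tRNA synthetase, was measured by probe A_55_P2266679 (NM_001013799). Its processed WT signals were 7527, 3677 and 4486 on arrays 1 to 3. Its processed KO signals were 200.4, 32.3 and 45.4 on the same arrays. Every WT value was far above every KO value, and array 1 was the highest in both genotypes. Before normalisation the median spot intensity exceeded the local background by 743, 308 and 377 units in the WT channel. The corresponding excess in the KO channel was 8, 0.5 and 1 units. The KO spots were thus close to their surroundings on all 3 arrays, and only the KO spot of array 1 was well above background.

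The log2 ratios of Mettl21c were -2.93, -1.96 and -2.46, and the transcript fell by 2.45 in KO on the log2 scale (SD 0.48, moderated 95% confidence interval -2.85 to -2.05, n = 3 arrays, limma adjusted p = 0.0289). On the offset scale this is 5.47-fold lower in KO. Its unadjusted p ranked 1 of 8391, no tested probe had a lower mean ratio, and it was the only probe of the array past the threshold, so 0.0119% of tested probes were called lower and 0% higher. The count for the set was 1 of its 3 tested probes, and that probe entered the test through the WT channel alone, where it was bright. Without the offset, the processed signals gave log2 ratios of -5.23, -6.83 and -6.62 (mean -6.23, SD 0.87, n = 3), of which only that of array 1 rests on a KO spot well above background. On array 1, where the KO spot was measured, the processed KO signal was 37.6-fold lower. On arrays 2 and 3 the KO spot was replaced by the lowest processed KO signal well above background, 58.9 and 78.4. The WT signals were 62.4-fold and 57.2-fold above these levels. These levels are no strict limits, since KO spots of the set up to 131.7 and 93.3 on these arrays were not well above background. The mean of these 3 values on the log scale was 51.2-fold. As it mixes the measured ratio of array 1 with those levels, it is no lower bound. In whole muscle, fewer cells carrying a transcript and less of it per cell cannot be told apart.

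The KO spot of array 1 was the brightest of the 3, and it was the spot whose local red background had an outlier flag. With spots of flagged backgrounds left out, which drops array 1 for this probe, the mean log2 ratio of Mettl21c was -2.21 (n = 2, limma adjusted p = 0.0429). The call was lost with the processed signals as the source of the ratio (adjusted p = 0.0767), without the filter on dimness (adjusted p = 0.131) and when the 6 channels were fitted as separate samples (adjusted p = 0.768). The place of the probe relative to the LacZ insertion was not analysed here.

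**Figure D2:**
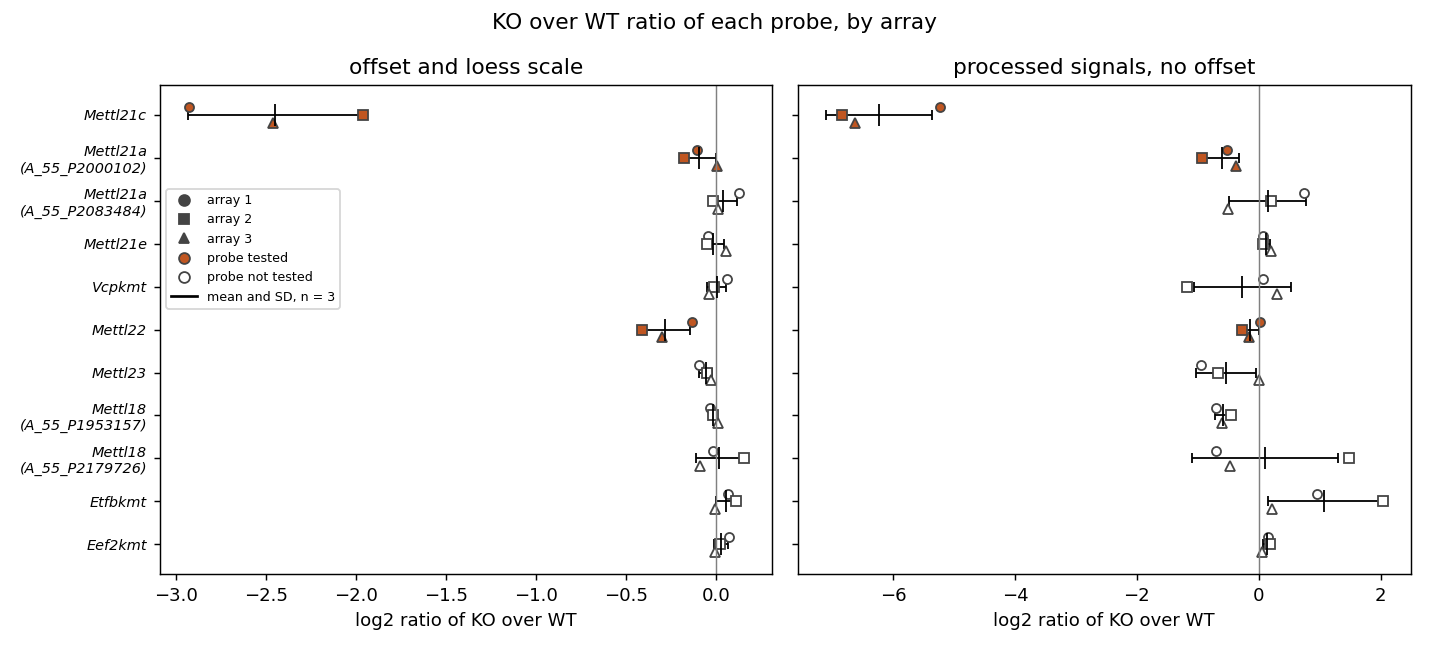
Log2 ratio of KO over WT of each probe on arrays 1, 2 and 3, with the mean and SD over the 3 arrays, on the offset and loess scale (left) and from processed signals without an offset (right). The axes of the panels differ; Mettl21c lies between -2.93 and -1.96 on the left and between -6.83 and -5.23 on the right, while the means of the 8 untested probes on the left lie between -0.06 and 0.06.

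**Figure D3:**
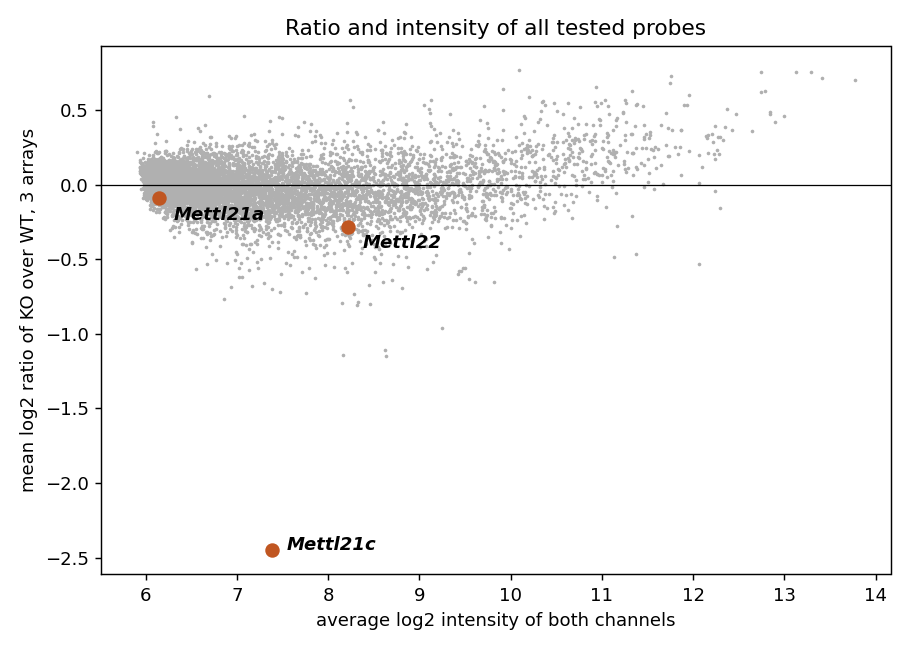
Mean log2 ratio of KO over WT against average log2 intensity for all 8391 tested probes in grey, with the tested probes of the set in orange. Mettl21c, at -2.45, lies below every other tested probe, whose 5th to 95th percentiles run from -0.24 to 0.22; the brightest probes, on the right, lie mostly above 0.

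Mettl21e is the closest relative of Mettl21c, is known as a muscle enzyme that methylates the segregase Vcp in mouse, and lies near it on chromosome 1, where RefSeq places 5 protein-coding genes between them (Gm8251, Tex30, Poglut2, Bivm and Ercc5). The processed signals of its probe A_66_P107377 (NM_207281) were 22.0, 24.7 and 30.4 in WT. In KO they were 23.2, 26.0 and 34.8. None of the 6 values was well above background and the groups overlapped, so no difference in Mettl21e was detectable with this probe. Its log2 ratios were -0.04, -0.05 and 0.05 (mean -0.01, SD 0.06, n = 3), its processed log2 ratio averaged 0.11 (SD 0.07, n = 3), and it was not tested. The log ratio deposited for this probe was 0 on all 3 arrays.

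Mettl21a, which methylates chaperones of the Hsp70 family, had a dim but measured probe, A_55_P2000102 (NM_025964). Its processed WT signals were 176.2, 173.0 and 204.0, all well above background. Its processed KO signals were 123.1, 90.5 and 157.4, well above background on arrays 1 and 3. Every KO value was below every WT value on this scale, although the probe did not pass the test. The probe entered the test through the WT channel alone, and such entry favours probes that are brighter in WT. Its log2 ratios were -0.10, -0.18 and 0.01 (mean -0.09, SD 0.09, moderated 95% confidence interval -0.26 to 0.08, n = 3, limma adjusted p = 0.635). The processed ratios, without the offset, were -0.52, -0.93 and -0.37 (mean -0.61, SD 0.29, n = 3), and they did not pass the test either (limma adjusted p = 0.384). The sign of the mean depended on the scaling, since it was 0.16 when each array was centred on its tested probes in place of the loess fit.

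The other Mettl21a probe, A_55_P2083484, was assigned to the same transcript and was dim throughout. Its processed signals were 20.3, 24.9 and 66.5 in WT and 33.9, 28.6 and 46.8 in KO, none of them well above background. Its log2 ratios were 0.13, -0.02 and 0.01 (mean 0.04, SD 0.08, n = 3) and its processed log2 ratio averaged 0.15 (SD 0.63, n = 3), so the lower KO signals of the brighter probe were not seen on all arrays with this one.

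Vcpkmt, formerly Mettl21d, trimethylates Vcp. The processed signals of its probe A_55_P1971854 (NM_001033236) were 20.2, 69.6 and 23.5 in WT. In KO they were 21.2, 30.7 and 29.0. The groups overlapped, the WT value of array 2 stood highest, and none of the 6 values was well above background. The log2 ratios were 0.06, -0.01 and -0.04 (mean 0.01, SD 0.05, n = 3), and the processed log2 ratio averaged -0.27 (SD 0.80, n = 3), with no test.

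Mettl22, a nuclear enzyme that methylates the DNA and RNA binding protein Kin, gave a bright signal in both genotypes with probe A_52_P148658 (NM_146247). Its processed WT signals were 3671, 5061 and 4211 (mean 4314, SD 701, n = 3). Its processed KO signals were 3720, 4185 and 3778 (mean 3894, SD 253, n = 3). The ranges overlapped, with array 2 the highest in both genotypes, and all 6 values were well above background. On the offset and loess scale its log2 ratios were -0.13, -0.41 and -0.30, with a mean of -0.28 (SD 0.14, moderated 95% confidence interval -0.47 to -0.09, n = 3). The unadjusted p was 0.00975, at rank 397 of 8391, and the probe did not pass the test after adjustment (limma adjusted p = 0.206). The processed ratios were 0.02, -0.27 and -0.16 (mean -0.14, SD 0.15, n = 3), so only 2 of 3 arrays were below 0 on that scale.

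The size and the call of the Mettl22 ratio moved with the scaling. With each array centred on the median of all spots in place of loess its mean log2 ratio was -1.0 (limma adjusted p = 0.000689), but that scaling also moved the median of all tested probes to -0.44 from -0.0033 and called 5483 of them. Centred on the tested probes, the mean log2 ratio of Mettl22 was -0.56 (limma adjusted p = 0.0128), with 3041 probes called. With the channels brought to equal gain before the offset it was -0.23 and did not pass.

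**Figure D4:**
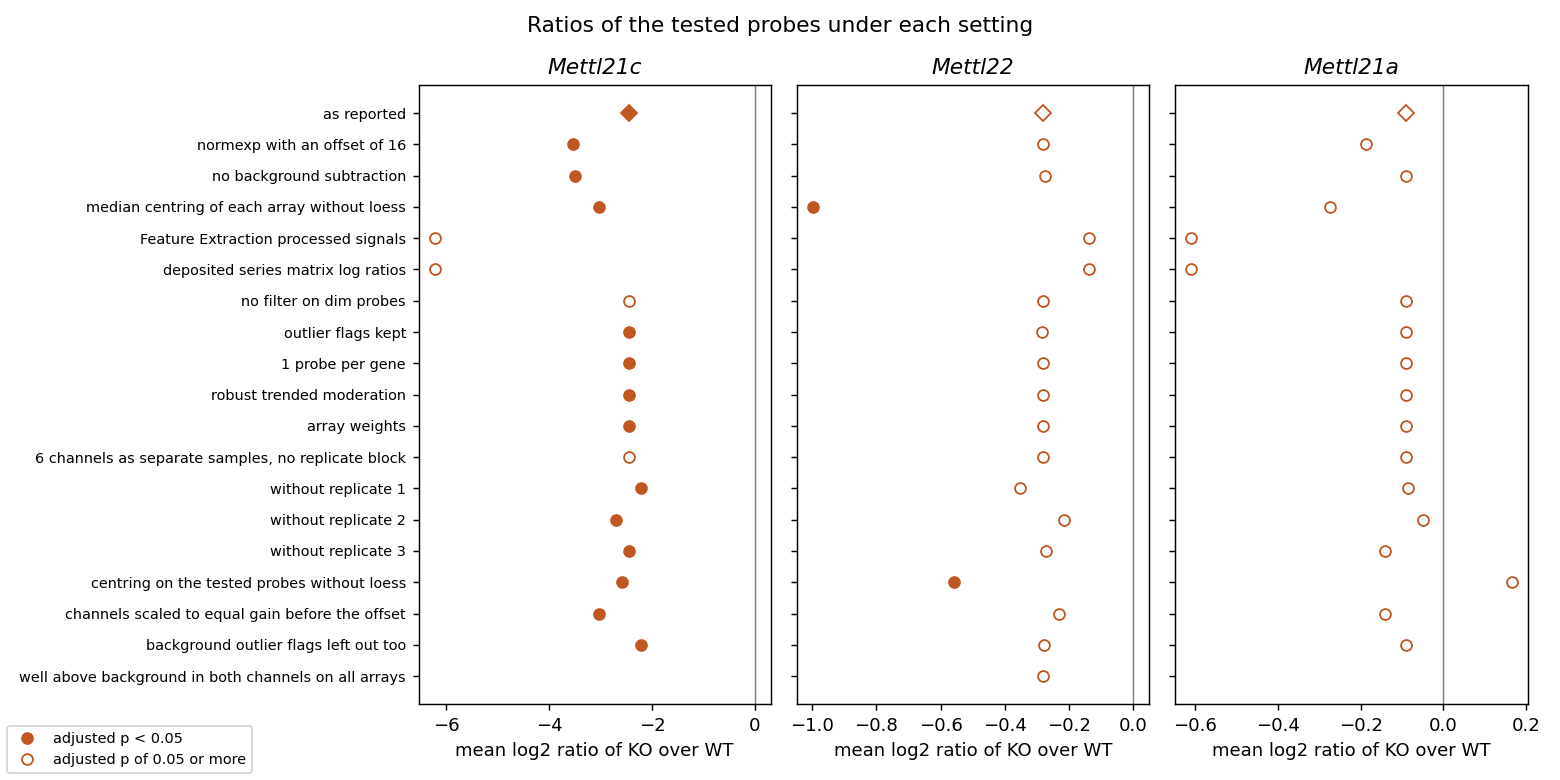
Mean log2 ratio of KO over WT of Mettl21c, Mettl22 and the tested Mettl21a probe as reported (diamonds) and under each alternative setting (circles), filled where the limma adjusted p was under 0.05. The scales of the 3 panels differ; all values of Mettl21c (-6.23 to -2.21) and Mettl22 (-1.0 to -0.14) are below 0, and that of Mettl21a is above 0 only with centring on the tested probes, at 0.16.

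Mettl23, linked to histone methylation and to intellectual disability in humans, was measured by probe A_55_P1980966 (NM_028865). Its processed WT signals were 204.8, 193.8 and 25.1, well above background on arrays 1 and 2. Its processed KO signals were 105.8, 121.6 and 25.1, and none was well above background. On arrays 1 and 2 the WT spot was the brighter, and on array 3 both were at the level of the undetected probes. The log2 ratios were -0.10, -0.05 and -0.03 (mean -0.06, SD 0.04, n = 3), and the processed log2 ratio averaged -0.54 (SD 0.49, n = 3). The probe missed the filter through its WT value on array 3 and was not tested.

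Mettl18, the histidine methyltransferase of the ribosomal protein Rpl3, had its brighter signal with probe A_55_P1953157 (NM_027279). The processed WT signals were 107.3, 179.8 and 141.9, of which only that of array 2 was well above background. The processed KO signals were 66.1, 131.7 and 93.3, none well above background. Within each array the KO spot was the dimmer, while the ranges of the 2 genotypes overlapped because array 2 was high and array 1 low in both. The processed log2 ratios were -0.70, -0.45 and -0.61 (mean -0.58, SD 0.13, n = 3), against a mean of -0.01 (SD 0.02, n = 3) on the offset and loess scale. The other Mettl18 probe, A_55_P2179726, was never well above background, with processed signals of 38.2, 23.6 and 34.3 in WT and 23.5, 66.0 and 24.8 in KO, and log2 ratios of -0.02, 0.16 and -0.09 (mean 0.02, SD 0.13, n = 3). Its processed log2 ratio averaged 0.11 (SD 1.20, n = 3).

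Etfbkmt, formerly Mettl20, is the mitochondrial enzyme that methylates the beta subunit of the electron transfer flavoprotein. The processed WT signals of its probe A_55_P2137840 (NM_001252097) were 19.9, 55.7 and 22.0, none well above background. The processed KO signals were 38.5, 228.2 and 25.6, with only that of array 2 well above background. The KO spot was brighter than its WT partner on all 3 arrays, and the ranges overlapped. The high KO spot of array 2 had a median intensity of 26 over a local background of 23, and that background had an outlier flag. The processed log2 ratios were 0.96, 2.03 and 0.21 (mean 1.07, SD 0.91, n = 3), while those on the offset and loess scale were 0.07, 0.11 and -0.01 (mean 0.06, SD 0.06, n = 3). The probe was not tested.

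Eef2kmt, formerly Fam86a, methylates the translation elongation factor eEF2. The processed signals of its probe A_55_P2071426 (NM_027446) were 20.9, 25.4 and 24.6 in WT. In KO they were 23.3, 28.8 and 25.7. The groups overlapped and no value was well above background. The log2 ratios were 0.07, 0.03 and -0.01 (mean 0.03, SD 0.04, n = 3), and the processed log2 ratio averaged 0.13 (SD 0.06, n = 3), with no test. The log ratio deposited for this probe was 0 on all 3 arrays.

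Over the 8 untested probes, 3 of 24 WT values and 1 of 24 KO values were well above background. Their log2 ratios on single arrays lay between -0.10 and 0.16 on the offset and loess scale and between -1.18 and 2.03 from processed signals. The wider range of the processed ratios came with signals between 19.9 and 228.2.

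A list of 39 other protein methyltransferases expressed or studied in muscle, among them SET-domain and SMYD enzymes, served as the wider pathway. Of these, 37 had a probe and 18 were tested, while 8 were never well above background. None passed the test in either direction, and 4 had an unadjusted p under 0.05, against 1143 of 8391 probes (13.6%) over the whole array. Of the 18 tested genes, 8 had ratios above 0 and 10 below, with a median log2 ratio of -0.0042 against -0.0033 for all tested probes. The range ran from -0.34 for Smyd1 to 0.24 for Suv39h2.

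Smyd1, a muscle-restricted methyltransferase needed for the assembly of the sarcomere, had log2 ratios of -0.24, -0.47 and -0.33 (mean -0.34, SD 0.12, n = 3, limma adjusted p = 0.138). Its other probe was not tested and had a mean log2 ratio of -0.26 (SD 0.38, n = 3). Suv39h2, a histone H3 methyltransferase of heterochromatin, had log2 ratios of 0.28, 0.24 and 0.20 (mean 0.24, SD 0.04, n = 3, limma adjusted p = 0.201). All 3 arrays lay on one side of 0 for both genes, but the sign of Suv39h2 turned to -0.24 with median centring of each array, and its other probe, never well above background, averaged 0.02. From processed signals the mean log2 ratio of Suv39h2 was 0.65 and that of Smyd1 was -0.40. Ehmt2, another histone H3 methyltransferase, had log2 ratios of -0.09, -0.33 and -0.29 (mean -0.24, SD 0.13, n = 3, limma adjusted p = 0.263).

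**Figure D5:**
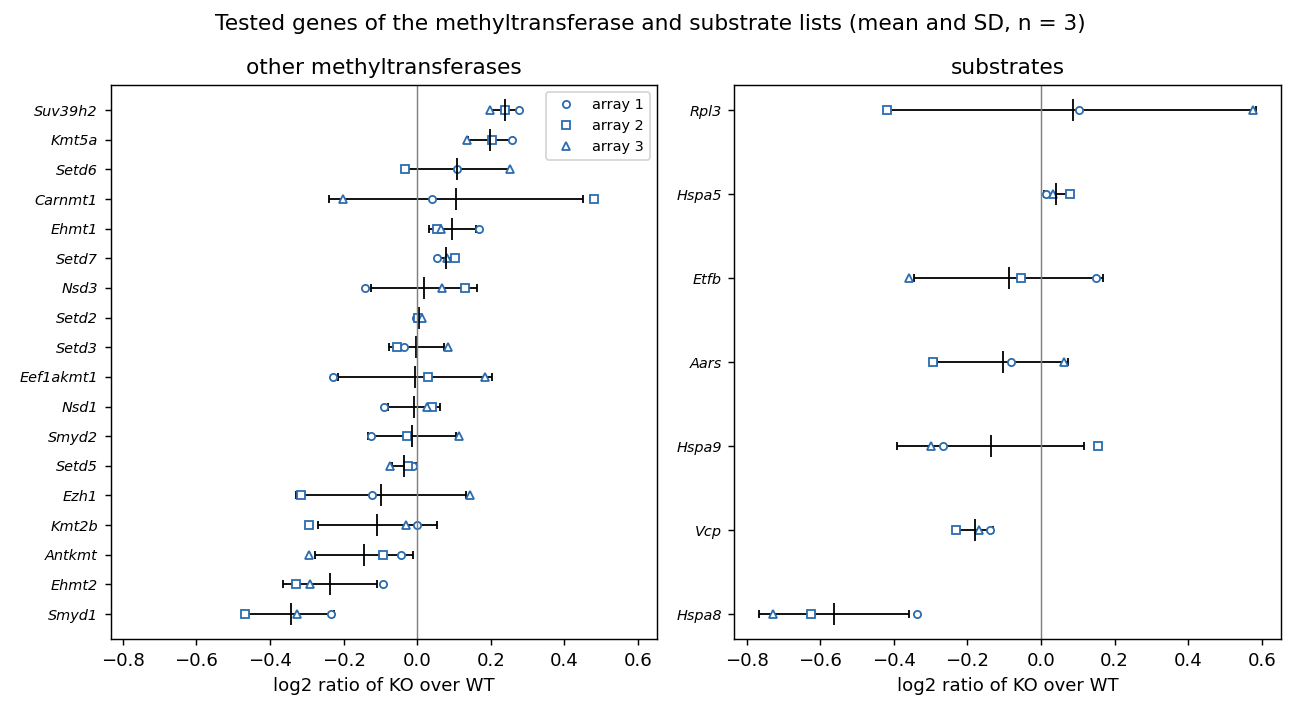
Log2 ratio of KO over WT on the offset and loess scale for the 18 tested genes of the other methyltransferases (left) and the 7 tested substrate genes (right), with arrays 1, 2 and 3 as circles, squares and triangles and the mean and SD over the 3 arrays. None passed the test; the means run from -0.34 (Smyd1) to 0.24 (Suv39h2) on the left and from -0.56 (Hspa8) to 0.09 (Rpl3) on the right.

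Of 13 genes encoding substrates described for these enzymes, 7 were tested, 2 with ratios above 0 and 5 below (median log2 ratio -0.10), and none passed. Over all tested probes 51.3% of mean ratios were below 0. Hspa8, the constitutive Hsp70 and a substrate of Mettl21a, had a mean log2 ratio of -0.56 (SD 0.20, n = 3, limma adjusted p = 0.0940) with 1 probe but 0.02 and -0.01 with its other probes, while Vcp had -0.18 (SD 0.05, n = 3, limma adjusted p = 0.310) and the mitochondrial Hsp70 gene Hspa9 had -0.14 (SD 0.25, n = 3, limma adjusted p = 0.628). The size and the call of Hspa8 moved with the setting, as its mean log2 ratio was -0.94 with an offset of 16 (limma adjusted p = 0.0258), -1.39 from processed signals (limma adjusted p = 0.378) and -0.56 with robust moderation (limma adjusted p = 0.0107).

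The genes whose 6 channel values were most like those of Mettl21c were found by Pearson's r over the WT and KO values of the 3 arrays among 5773 tested genes. These values share the arrays and the labelled samples, so r is a description. Mettl21c differed mainly between WT and KO, so a high r selects genes whose WT and KO values also separate, with WT the higher. The highest was Creld1, which encodes a membrane protein with epidermal growth factor domains (r = 0.994), followed by the kinase gene Pnck (r = 0.987), the mercaptopyruvate sulfurtransferase gene Mpst (r = 0.978), the mRNA export gene Gle1 (r = 0.971) and the nuclear factor gene Akirin1 (r = 0.969). In all 5 genes every KO value was below every WT value, as this choice favours, and their differences were smaller than that of Mettl21c. Mpst had log2 values of 8.67, 8.42 and 8.57 in WT and 7.75, 7.83 and 7.70 in KO. The mean log2 ratio of Mpst was -0.79 (SD 0.18, n = 3, limma adjusted p = 0.0661). The mean log2 ratios of the other 4 lay between -0.21 for Creld1 and -0.17 for Gle1, and none of the 5 passed the test.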

How the data were processed

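Total RNA of SOL muscle was extracted with Trizol and labelled with the Agilent LowInput QuickAmp kit, WT in Cy3 and KO in Cy5, per the labels' protocols. The deposited scanner files give the intensity of each spot in both channels, local backgrounds, flags and processed signals, and per the file headers their software was Feature Extraction 12.0.3.1. The version in the submitters' processing notes is 11.5. The deposited series matrix holds a log10 ratio per spot, which equalled the scanner's log10 ratio of KO over WT within 5e-10 on arrays 1 and 2 and within 0.00499 on array 3. Its column medians were 0, and it was not centred further.

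Median spot intensities were corrected against the local background median with normexp (offset 50) and normalised within arrays by loess, giving weight 0 to controls and to flagged outlier spots, in limma 3.58.1 under R 4.3.3 with the data.table package (version 1.17.8). Median backgrounds were 32 to 36 units for WT and 17 for KO. Outlier spots (536, 572 and 1002 on arrays 1 to 3) were dropped and spots of a probe averaged. The test was run on the 8391 of 55681 probes that had 3 values and stood well above background in WT, in KO or in both on every array. The mean log2 ratio of each probe was tested against 0 with eBayes, two-sided, with Benjamini-Hochberg adjustment and a threshold of 0.05; the array pairs its WT and KO sample. All arrays lay on 1 slide. Of 29472 probes with a RefSeq accession 28664 matched RefSeq entries of assembly GRCm38.p6, used for names and neighbours only. A gene of a list was represented by its tested probe of highest average intensity.

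The members, the lists and the rule for named genes were chosen with earlier results of these data known. The rule named all 10 members, the 3 tested genes of smallest p of the methyltransferase and substrate lists, and the 5 genes most like Mettl21c. The steps were also run on simulated arrays with changes planted in a random draw of the tested probes. The simulation held no preference of a probe for one dye, so it does not bear on that limit. Alternatives changed the background correction, offset, normalisation, source of the ratio, filter, flags, probes per gene, moderation, array weights, treatment of the channels and the arrays used. Centring on the tested probes, equal channel gain and leaving out flagged backgrounds were added after seeing the data.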

Additional observations from a re-analysis of the deposited data

How the results depend on the processing

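The mean log2 ratio of Mettl21c was below 0 under all 17 alternatives that gave a value (-6.23 to -2.21) and passed the test under 13 of them, with limma adjusted p-values from 7.9e-07 to 0.768 over all 17. It did not pass with processed signals (-6.23, adjusted p = 0.0767), with the series matrix (-6.22, adjusted p = 0.0768), without the filter on dimness (-2.45, adjusted p = 0.131, 54859 probes tested) or with the 6 channels as separate samples and no replicate block (-2.45, adjusted p = 0.768). Leaving out 1 array at a time gave -2.69 to -2.21 and kept the call. The filter requiring both channels well above background left Mettl21c and the Mettl21a probe out, so it gave no value for them.

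The number of probes of the set past the threshold was 2 with median centring and with centring on the tested probes, and 0 with processed signals, the series matrix, no filter, both channels required above background and separate channels. Over all tested probes the count was 1 as reported, 21 with an offset of 16, 3 without background subtraction, 5483 with median centring, 3041 with centring on the tested probes, 3 with 1 probe per gene, 80 with robust moderation, 38 with array weights and 8 with equal gain. It was 0 with processed signals, the series matrix, no filter, both channels required and separate channels. Without 1 array it was 11, 7 and 40 for arrays 1, 2 and 3. Among the other methyltransferases 11 passed with median centring and 8 with centring on the tested probes. Among the substrates 7 and 4 passed with these, and 1, Hspa8, passed with an offset of 16 and with robust moderation. The signs of the marker genes and of the genes most like Mettl21c were not compared across the settings. Among the tested genes of the set and those named from the methyltransferase and substrate lists, the sign turned for Mettl21a (0.16, centring on the tested probes) and Suv39h2 (-0.24, median centring). It also turned under at least 1 alternative for 6 of the 8 untested probes of the set, for example to 0.49 for Mettl21e, 0.31 for Mettl23 and 0.32 for the brighter Mettl18 probe with centring on the tested probes, and to -0.39 for Vcpkmt with the series matrix. The causes were not tested. Signal over background limits most of the set, since 8 of 11 probes missed the filter and their ratios say little about either genotype.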
